A study of Mus musculus with 9 samples.

Results

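The genes described here are Nfe2l2, which encodes the transcription factor Nrf2, its regulators Keap1 and Mafg, and 7 of its target genes, Hmox1, Nqo1, Gclc, Gclm, Txnrd1, Srxn1 and Slc7a11. They were chosen by name, from knowledge of the pathway, as rows of the count matrices of 9 mouse kidneys, and they are 10 of the 32427 genes in those matrices. Earlier results of these data were known when they were chosen. All 10 were found. Each gene is described in every mouse, in the 3 groups of mice and in cell types recognised by their marker genes. The question was where in the kidney the Nrf2 programme was transcribed and whether it differed after cisplatin and with ergothioneine.

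The kidneys came from male C57BL/6 mice that were 6 weeks old at the outset and were taken after 8 weeks, with 3 mice in each group and 1 single-cell RNA library per mouse. Control mice had saline injections. AKI-CKD mice, a model of the passage from acute kidney injury to chronic kidney disease, had 4 weekly intraperitoneal injections of cisplatin at 8 mg/kg. AKI-CKD + EGT mice had the same cisplatin and also drank ergothioneine (EGT) at 0.5 mg/mL, begun 3 days before the first cisplatin dose and kept up to the end. No group had ergothioneine without cisplatin, so its values apart from cisplatin were not measured, and both comparisons with AKI-CKD mice use the same 3 mice.

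Nrf2 is held in the cytoplasm by Keap1, which brings it to a ubiquitin ligase for destruction. Oxidants and electrophiles modify cysteines of Keap1, and Nrf2 then enters the nucleus, pairs with a small Maf protein such as Mafg and binds antioxidant response elements of genes for heme breakdown, quinone reduction, glutathione synthesis and the thioredoxin system. Cisplatin is taken up by the proximal tubule, the segment it injures most, and ergothioneine is a diet-derived thiol antioxidant. Nrf2 itself is regulated mainly as a protein, so a messenger level is no measure of its activity.

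The core of the antioxidant response element, TGACNNNGC, was looked for on both strands in the stretch from 250 bases before to 50 bases after each transcription start in RefSeq (build GRCm38.p6), because this is the sequence through which Nrf2 acts. Windows were at hand for 8 of the 10 genes, and not for Hmox1 and Gclc. A match was held by 5 of these 8 genes, against 3781 of all 27025 genes with a window (13.99%). Counted by window it was 5 of 10, against 12.4% of all 32851 windows. The 5 matches are shown 5′ to 3′ on the strand of the gene, with the match in capitals. A match written GC...GTCA is the element on the opposite strand.
Nfe2l2: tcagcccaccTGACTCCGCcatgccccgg
Mafg: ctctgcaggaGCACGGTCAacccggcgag
Gclm: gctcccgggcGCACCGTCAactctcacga
Txnrd1: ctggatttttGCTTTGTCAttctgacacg
Srxn1: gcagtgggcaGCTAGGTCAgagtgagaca
The Nfe2l2 stretch is chr2:75704885-75704913 (minus strand), the Mafg stretch is chr11:120633751-120633779 (minus strand) and the Gclm stretch is chr3:122245413-122245441 (plus strand). All 3 lie outside the annotated gene, with the match beginning at -240, -222 and -134 from the start. The Txnrd1 stretch is chr10:82859104-82859132 (plus strand), at -92 from 1 of the 3 starts of this gene and inside the gene as annotated from an earlier start. The Srxn1 stretch is chr2:152105542-152105570 (plus strand), 28 bases after the start, in the untranslated part of an exon. Only the Txnrd1 match carried the longer form of the element, with an A after the core, which 3.04% of all windows held. Keap1, Nqo1 and Slc7a11 had no match in these windows. These are matches of letters, and no binding was measured here.

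The matrices held unique molecular identifiers (UMIs), each standing for 1 captured RNA molecule. After filtering, 196925 of 216680 cell barcodes were kept, 17196 to 27463 per mouse, with a median of 2534 to 2966 UMIs per cell. Clusters named by markers gave 12 cell types, each called like the type its markers define, with 156561 proximal tubule (PT)-like cells the largest and 381 cycling cells the smallest. A further 4868 cells in 2 clusters had no name. Every marker of each type had at least 1 UMI in its own cells, which is no test of the names, since the clusters were named from these markers. Of the 14 PT markers, 4 (cluster 9) to 11 (cluster 4) were raised at least 1.5-fold in the PT-like clusters, against clusters of other types. The median mitochondrial share of UMIs was 1.67% to 2.82% in AKI-CKD mice and higher, 3.35% to 7.64%, in AKI-CKD + EGT mice, and in Control mice it was 6.86%, 4.19% and 1.23%. Summed erythroid markers over all kept cells were 0.400 to 3.26 CPM (a gene's UMIs as a share of the library's UMIs, scaled alike in all libraries) in AKI-CKD mice and 1.19 in Control mouse 1, against 66.6 to 223 in the other 5 mice. Both measures were apart between the cisplatin groups, while Control mice overlapped both groups, and their part in the comparisons was not tested.

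RNA of PT cells was present in the droplets of every other cell type. The 14 PT marker genes had in other types a median of 34.5% (collecting duct principal-like cells) to 72.4% (podocyte-like cells) of their level in PT-like cells. In loop of Henle (LOH)-like cells this was 57.1% and in distal convoluted tubule (DCT)-like cells 49.2%. A gene expressed in PT cells alone would be found at these shares elsewhere, so a level was read as belonging to a cell type only where it lay above all 14 PT markers, relative to PT-like cells, in 9 of 9 mice. DCT-like cells joined cluster 1 (7171 cells, led by Slc12a3 and Pvalb) and cluster 12 (5206 cells, led by Calb1 and S100g). No type was named for the connecting tubule, and its part in DCT-like cells was not tested.

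**Figure D1:**
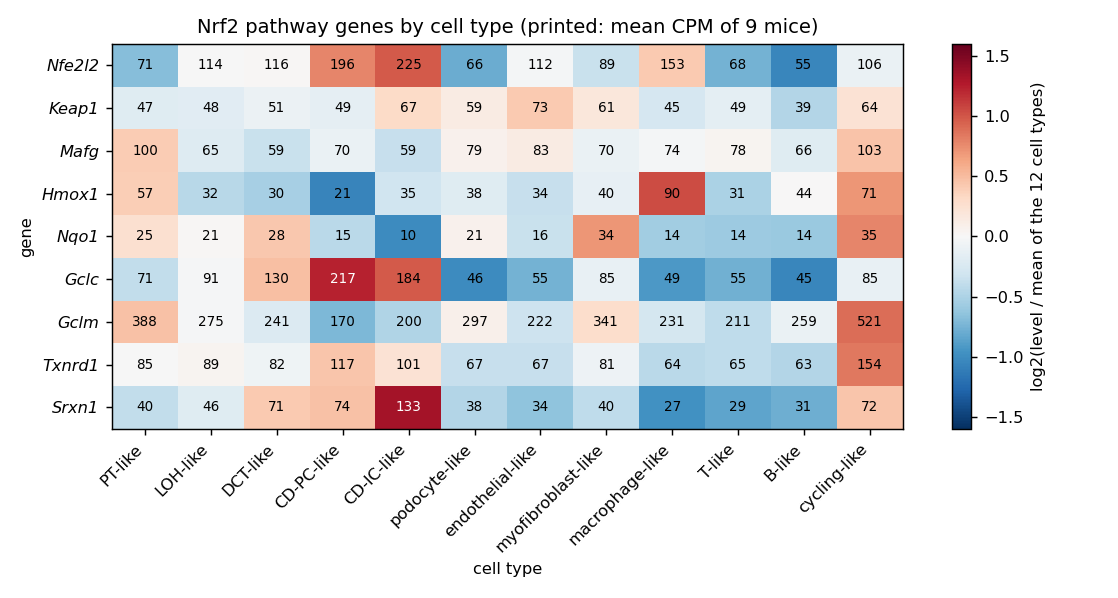
Levels of 9 of the 10 genes in 12 marker-defined cell types. The printed number is the mean CPM over 9 mice and the colour is its log2 ratio to the mean of the 12 types for that gene; Slc7a11 is left out because 195 UMIs were counted in all. Nfe2l2, Gclc and Srxn1 are highest in collecting duct-like cells, and Gclm and Mafg in cycling and PT-like cells.

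Nfe2l2 was highest in the collecting duct. Its level was 225 ± 65.1 CPM (mean ± SD, n = 9 mice throughout) in intercalated-like cells (CD-IC), 196 ± 43.9 CPM in principal-like cells (CD-PC) and 153 ± 26.4 CPM in macrophage-like cells. DCT-like cells had 116 ± 22.5 CPM, LOH-like cells 114 ± 18.9 CPM and endothelial-like cells 112 ± 11.7 CPM, while PT-like cells had 71.3 ± 4.94 CPM and B-like cells, the lowest, 55.4 ± 13.0 CPM. Of the neighbours in this order only macrophage-like and DCT-like cells differed by more than the larger SD. In CD-IC-like cells the level was 315% of that in PT-like cells, and in CD-IC, CD-PC, macrophage, DCT, LOH and endothelial-like cells Nfe2l2 lay above all PT markers in 9 of 9 mice. The segment with most of the cells was thus among the 4 types with the least Nfe2l2 message.

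Keap1, the repressor of Nrf2, spanned 1.85-fold between the highest and the lowest cell type. Endothelial-like cells had 72.6 ± 8.09 CPM, PT-like cells 47.4 ± 4.25 CPM and B-like cells 39.2 ± 10.9 CPM, and no neighbours in the order differed beyond their SD. It lay above all PT markers in 9 of 9 mice in endothelial, CD-IC, CD-PC, DCT and LOH-like cells. Mafg, the small Maf partner, had 103 ± 30.7 CPM in cycling cells, 99.7 ± 18.9 CPM in PT-like cells and 58.6 ± 17.0 CPM in CD-IC-like cells, again with no neighbours beyond their SD. The lowest level of Mafg, in CD-IC-like cells (58.7% of PT), was close to that in DCT-like cells (59.0% of PT). Its span of 1.76-fold was the smallest of the 9 genes and that of Keap1 the next. Only in CD-PC-like cells (70.2% of PT) and endothelial-like cells (82.9% of PT) was Mafg above all PT markers in 9 of 9 mice.

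Hmox1, the inducible heme oxygenase that opens the heme ring, was highest in macrophage-like cells at 90.2 ± 47.3 CPM, where it was 158% of its PT-like level and above all PT markers in 9 of 9 mice. Macrophages recycle heme from red cells. PT-like cells had 57.0 ± 56.7 CPM and CD-PC-like cells, the lowest, 21.0 ± 23.2 CPM. In these and most other types the SD was about as large as the mean, and Control mouse 1, described with the comparisons, was the highest. In macrophage-like cells AKI-CKD mouse 2 and Control mouse 1 were alike at 167 CPM (TMM scale). In LOH, DCT, CD-PC and T-like cells Hmox1 stood at 56.0%, 52.9%, 36.9% and 54.0% of PT, near the PT marker shares of 57.1%, 49.2%, 34.5% and 52.8%, and these values were read as background.

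Nqo1, the 2-electron quinone reductase, had 35.4 ± 15.6 CPM in cycling cells, 27.7 ± 5.16 CPM in DCT-like cells, 24.6 ± 4.84 CPM in PT-like cells and 10.2 ± 4.25 CPM in CD-IC-like cells, with no neighbours differing beyond their SD. It was above all PT markers in 9 of 9 mice in DCT-like cells (113% of PT) and LOH-like cells (84.7%). In macrophage-like cells it stood at 56.7% against a marker share of 57.5%.

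The 2 subunits of glutamate-cysteine ligase, the rate-limiting enzyme of glutathione synthesis, followed different orders. Gclc, the catalytic subunit, had 217 ± 48.7 CPM in CD-PC-like cells, 184 ± 39.4 CPM in CD-IC-like cells, 130 ± 23.9 CPM in DCT-like cells, 91.1 ± 28.5 CPM in LOH-like cells and 70.7 ± 28.4 CPM in PT-like cells. The steps from CD-IC to DCT and from DCT to LOH were larger than the SD. Gclm, the modifier subunit, ran the other way, with 521 ± 186 CPM in cycling cells, 388 ± 64.4 CPM in PT-like cells and 170 ± 34.7 CPM in CD-PC-like cells, the lowest. Gclc in CD-PC-like cells was 307% of PT and Gclm 43.7%. Gclc lay above all PT markers in 9 of 9 mice in the 4 distal types, and Gclm did so in 9 of 9 mice in none of the 11 other types, reaching 8 of 9 in DCT-like and CD-IC-like cells.

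Txnrd1, the cytosolic thioredoxin reductase, was at 154 ± 51.2 CPM in cycling cells, 117 ± 29.2 CPM in CD-PC-like cells and 85.5 ± 8.44 CPM in PT-like cells. Srxn1, sulfiredoxin, which repairs over-oxidised peroxiredoxins, reached 133 ± 42.4 CPM in CD-IC-like cells, and the step to the next type, CD-PC-like cells at 73.6 ± 15.2 CPM, was larger than either SD. DCT-like cells followed cycling cells at 71.1 ± 14.96 CPM, LOH-like cells had 46.4 ± 9.42 CPM and PT-like cells 40.4 ± 9.40 CPM. Both genes lay above all PT markers in 9 of 9 mice in LOH, DCT, CD-PC, CD-IC and endothelial-like cells.

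**Figure D2:**
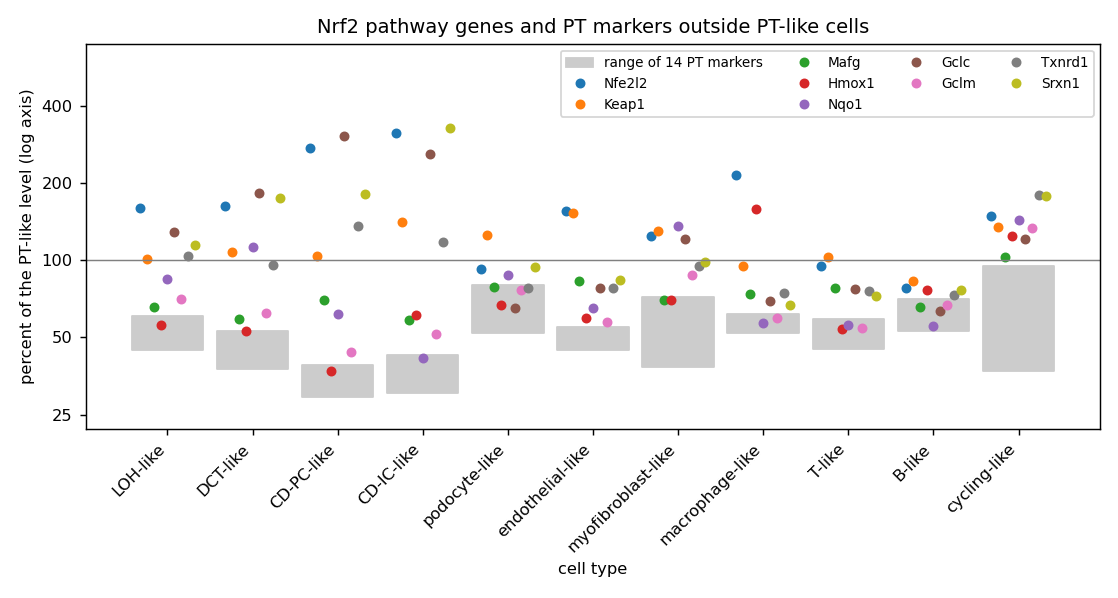
Each gene in 11 cell types as a percentage of its own level in PT-like cells (log axis), with the range of 14 PT marker genes in grey. Among the points above the grey range are Nfe2l2, Gclc and Srxn1 in the distal types and Hmox1 in macrophage-like cells, while Hmox1 in LOH-like cells lies in the range.

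Slc7a11, the light chain of the cystine importer xCT, was close to the limit of the data. In all, 195 UMIs were counted in 139 of 196925 cells. No UMI was found in 953 T-like cells, which allows up to 0.315% of cells with a UMI, or in 381 cycling cells, which allows up to 0.787% (counting error only, and no limit on cells that express the gene below detection). In macrophage-like cells 21 of 2852 cells held 31 UMIs, a level of 2.86 ± 2.60 CPM, and in PT-like cells 43 of 156561 cells held 45 UMIs. The highest share was in a cluster of 350 cells that had no name. Its leading genes included Pcdh15 and also Cntnap2, Asic2 and Nkain2, which are best known from neurons. There 36 cells, or 10.3%, held 80 of the 195 UMIs, at 50.8 CPM. The median depth of these 350 cells, 2871.5 UMIs, was close to the 2875 UMIs of PT-like cells, of which 0.0275% held a UMI of Slc7a11. These UMIs came from 8 of 9 mice, with 20, 23 and 2 in AKI-CKD mice, 1, 8 and 6 in AKI-CKD + EGT mice and 19, 1 and 0 in Control mice.

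The PT-like cells fell into 10 clusters, over which the genes varied in opposite senses. Clusters were formed without the 10 genes. Mafg was 191 CPM in cluster 0, led by Snhg11 and Slc5a12, and 45.3 CPM in cluster 8, led by Slc7a13 and Mogat1, a 4.22-fold step in the same order in 9 of 9 mice. Slc7a13 is an apical transporter of the last, straight segment of the proximal tubule and Slc5a12 a lactate transporter of its first part. Slc7a13 was also among the leading genes of cluster 4, where Mafg was 144 CPM, and of cluster 10, where it was 85.9 CPM. Gclm ran opposite to Mafg between clusters 0 and 8, with 586 CPM in cluster 8 and 259 CPM in cluster 0. The mean of Nqo1 was likewise highest in cluster 8 (37.6 CPM), which was the highest cluster in 5 of 9 mice. Nfe2l2 was 2.32-fold higher in cluster 0 than in cluster 8, in this order in 9 of 9 mice. Hmox1 was 116 CPM in cluster 2, led by Angptl4, Gadd45g and Osgin1, and 27.0 CPM in cluster 5, and without Control mouse 1, which had 480 CPM in cluster 2, these were 70.9 and 22.1 CPM. Cluster 2 had the most Hmox1 in 9 of 9 mice. Gclc ran from 144 CPM in cluster 0 to 42.6 CPM in cluster 3, a 3.37-fold step. Keap1 differed by 1.20-fold and Txnrd1 by 1.32-fold between the highest and lowest cluster. The clusters also differed in depth. Clusters 0, 4, 2 and 10 ranked 1 to 4 for both Mafg and Nfe2l2. Their median UMIs per cell, relative to the median of the library, were 1.47, 2.06, 1.71 and 2.14, against 0.549 to 1.01 in the other PT-like clusters. The part of depth in these orders was not tested. All clusters shared the same 9 libraries, so these are contrasts within mice and not independent of one another.

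Between groups of mice, no member passed the test in any comparison. Counts were summed per mouse, over all kept cells and in PT, LOH, DCT, macrophage and endothelial-like cells, and tested by edgeR's quasi-likelihood test with adjustment over all genes of each fit. Values of single genes below are CPM scaled by TMM, a normalisation that sets most genes to no change, sums over marker genes are plain CPM, and fold changes are log2 ± standard error. Of 165 gene values in 18 comparisons, 0 had an adjusted p below 0.05 with edgeR and 24 an unadjusted p below 0.05, the lowest adjusted p being 0.240. Of all tested genes 3.78% to 15.3%, by comparison, had an unadjusted p below 0.05 with edgeR. DESeq2 called 0 of 177, with 19 at an unadjusted p below 0.05. Without the filter on low counts edgeR called 1 member in each of 7 comparisons, Hmox1 in LOH, DCT and endothelial-like cells against Control and Mafg in DCT-like cells between the cisplatin groups. That fit lowered adjusted p-values of other genes too. For Hspa1a in LOH-like cells between the cisplatin groups it gave 8.0e-11, against 0.0408 with the filter (edgeR). The share of all genes it called is not given, so these calls were not read as results about the members. In sums over all kept cells, a change in the mix of cell types and a change in level per cell cannot be told apart.

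Few genes of any kind were called. The comparisons are given in 1 order, first AKI-CKD against Control, then the ergothioneine-treated mice against AKI-CKD and last the ergothioneine-treated mice against Control. The shares of all tested genes called by edgeR were 0.0199%, 0.00496% and 0.00496% in all kept cells, 0.0444%, 0% and 0% in PT-like cells and 0.0382%, 0.544% and 0% in LOH-like cells. In DCT-like cells they were 0%, 0% and 0%, in macrophage-like cells 0.044%, 0.011% and 0%, and in endothelial-like cells 0%, 0.00963% and 0.0193%. DESeq2 called 0.338%, 0.667% and 0.317% of its genes in all kept cells, 0.634%, 1.39% and 0.297% in PT-like cells and 0.201%, 0.542% and 0.00427% in LOH-like cells. Its shares were 0.032%, 0.3% and 0% in DCT-like cells, 0.0993%, 0.052% and 0% in macrophage-like cells and 0.143%, 0.415% and 0.0216% in endothelial-like cells. The members' count of 0 was thus near the background in every comparison by both tools.

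As a second description, 22 of the 165 values had groups of 3 mice that did not overlap. In all kept cells these were 0, 2 and 1 of 10 members in the same order of comparisons, against 15.8%, 18.3% and 13.3% of all genes. In PT-like cells they were 0, 2 and 2 of 9, against 20.6%, 21% and 10.5%. LOH-like cells had 2, 3 and 1 of 9, against 16.5%, 17.8% and 10.7%, and DCT-like cells 0, 3 and 1 of 9, against 15.9%, 17.2% and 9.09%. Macrophage-like cells had 1, 0 and 1 of 9, against 12.8%, 12.8% and 8.84%, and endothelial-like cells 2, 1 and 0 of 9, against 14.6%, 15.2% and 11.3%. A count of 1 or 2 among 9 is close to these shares.

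The scale mattered for the comparison of AKI-CKD + EGT with AKI-CKD. Scaling to total UMIs in place of TMM, an alternative chosen after seeing the data, raised the median log2 fold change of all genes by 0.23 in all kept cells and in PT-like cells. Nfe2l2, Keap1, Gclm and Txnrd1 changed sign in both, and Nqo1 in all kept cells.

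**Figure D3:**
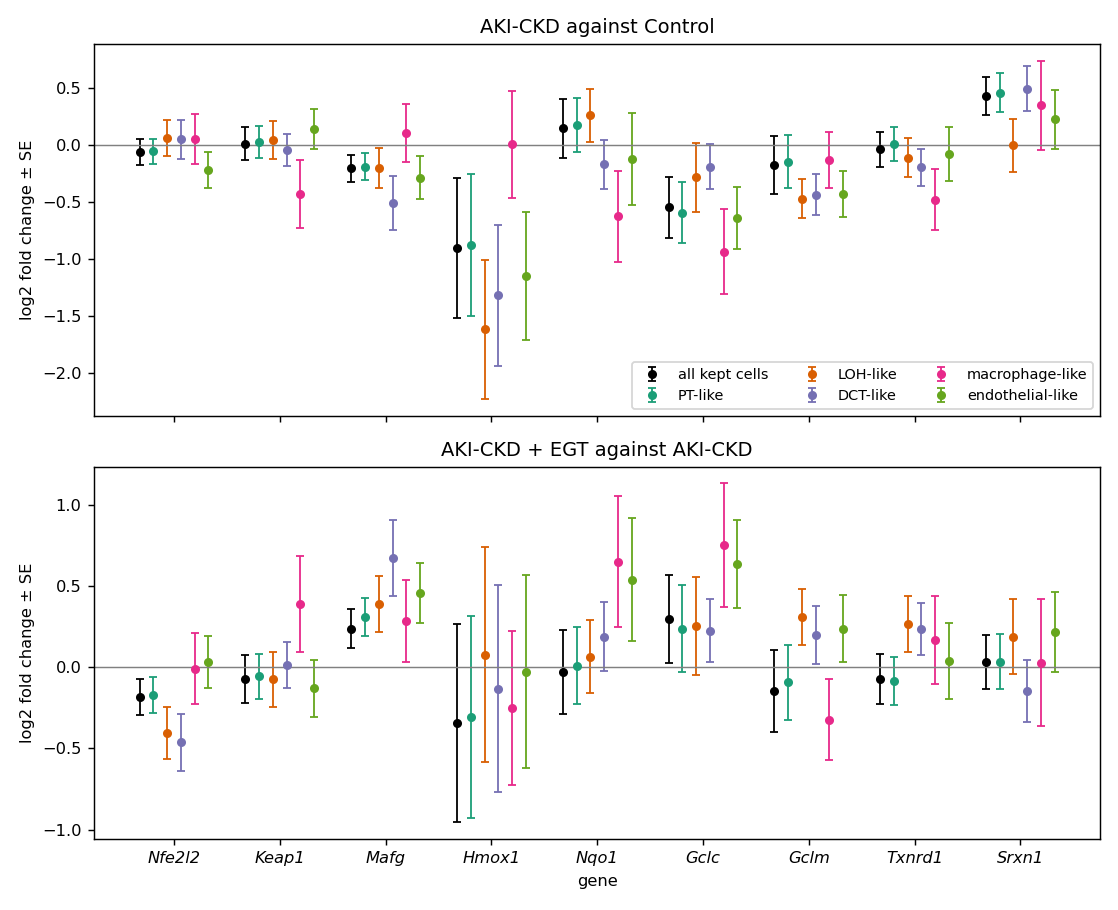
Log2 fold changes ± standard error (TMM scale) of 9 genes in 6 populations of cells, with AKI-CKD against Control in the first panel and the ergothioneine-treated mice against AKI-CKD in the second. Mafg is above 0 in all 6 populations in the second panel, and Nfe2l2, Keap1, Gclm and Txnrd1 change sign there in all kept and PT-like cells with scaling to total UMIs, as does Nqo1 in all kept cells.

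Nfe2l2 in PT-like cells was 69.1, 80.7 and 78.7 CPM in Control mice, 75.4, 72.1 and 71.9 CPM in AKI-CKD mice and 66.9, 63.8 and 64.1 CPM in AKI-CKD + EGT mice. The ergothioneine-treated mice lay below both other groups without overlap. The difference from AKI-CKD was -0.17 ± 0.11 (adjusted p = 0.480, edgeR), and with total UMIs it was 0.057 and the groups overlapped. On that scale the ergothioneine-treated mice overlapped Control mice as well, and AKI-CKD mice lay below Control mice without overlap. In LOH-like cells the AKI-CKD mice had 119, 140 and 121 CPM and the AKI-CKD + EGT mice 87.8, 107 and 92.8 CPM, again apart, a difference of -0.40 ± 0.16 (adjusted p = 0.240, edgeR) that was -0.38 with total UMIs. In DCT-like cells the difference was -0.46 ± 0.18 (adjusted p = 0.333, edgeR), with AKI-CKD mice at 112 to 140 CPM and AKI-CKD + EGT mice at 89.1 to 104 CPM, groups that overlapped with total UMIs. The PT marker share was higher on average in the second group in the same comparison, from 40.5% to 54.2% in DCT-like and from 50.05% to 62.6% in LOH-like cells, and PT-like cells had less Nfe2l2 than either. The part of this in both differences was not tested. Without Harmony, the step that aligns the libraries before clustering, the LOH value was -0.20. AKI-CKD against Control gave -0.06 ± 0.11 in PT-like cells and 0.05 ± 0.16 in LOH-like cells. Within the 10 PT clusters the ergothioneine difference was above 0 in 5 and below 0 in 5.

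Keap1 had no unadjusted p below 0.05 in any comparison. In PT-like cells Control mice had 41.1, 50.01 and 51.4 CPM, AKI-CKD mice 41.1, 47.9 and 56.1 CPM and AKI-CKD + EGT mice 47.3, 47.8 and 44.3 CPM. All groups overlapped, with fold changes of 0.03 ± 0.14 and -0.06 ± 0.14, and both changed sign with total UMIs. In macrophage-like cells Control mice had 48.4, 45.2 and 62.1 CPM, AKI-CKD mice 14.9, 41.4 and 48.0 CPM and AKI-CKD + EGT mice 55.0, 46.6 and 49.1 CPM. AKI-CKD mouse 1 stood lowest, the fold changes were -0.43 ± 0.30 and 0.39 ± 0.30, and the 2 cisplatin groups, which overlapped here, were apart with total UMIs.

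The fold change of Mafg between the cisplatin groups was above 0, the ergothioneine-treated mice being higher, in all 6 populations, as was that of Gclc. The populations share the same mice, and all kept cells contain the others. In PT-like cells Control mice had 102, 89.8 and 108 CPM, AKI-CKD mice 84.3, 92.2 and 86.2 CPM and AKI-CKD + EGT mice 113, 102 and 111 CPM. Every AKI-CKD + EGT mouse was above every AKI-CKD mouse, by 0.31 ± 0.12 (adjusted p = 0.282, edgeR), and AKI-CKD mice overlapped Control mice. In DCT-like cells AKI-CKD mice had 43.6, 51.5 and 36.6 CPM and AKI-CKD + EGT mice 52.1, 75.5 and 83.1 CPM, a difference of 0.67 ± 0.23 (adjusted p = 0.323, edgeR) in which the nearest mice were 51.5 and 52.1 CPM. LOH-like cells gave 0.39 ± 0.17 (64.0 CPM in the highest AKI-CKD mouse, 65.6 CPM in the lowest AKI-CKD + EGT mouse), and endothelial-like cells 0.46 ± 0.18, where the groups overlapped. In DCT-like and LOH-like cells Mafg was not above all PT markers in 9 of 9 mice, and the mean PT marker share was higher there with ergothioneine, as given for Nfe2l2. Its part in these differences was not tested. In the 10 PT clusters the difference was above 0 in 10, with a median of 0.39, and the groups did not overlap in 7. These clusters are parts of the same mice, so they repeat the PT-like contrast and are no replicates. In PT-like cells as a whole 21% of all genes were apart in this comparison, and the share within single clusters was not counted. Leaving out each mouse in turn gave 0.28 to 0.35 in PT-like cells, and cells with at most 10% mitochondrial UMIs gave 0.33. Against Control, AKI-CKD mice were at -0.51 ± 0.24 in DCT-like cells and -0.19 ± 0.12 in PT-like cells. None of these values passed the test.

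**Figure D4:**
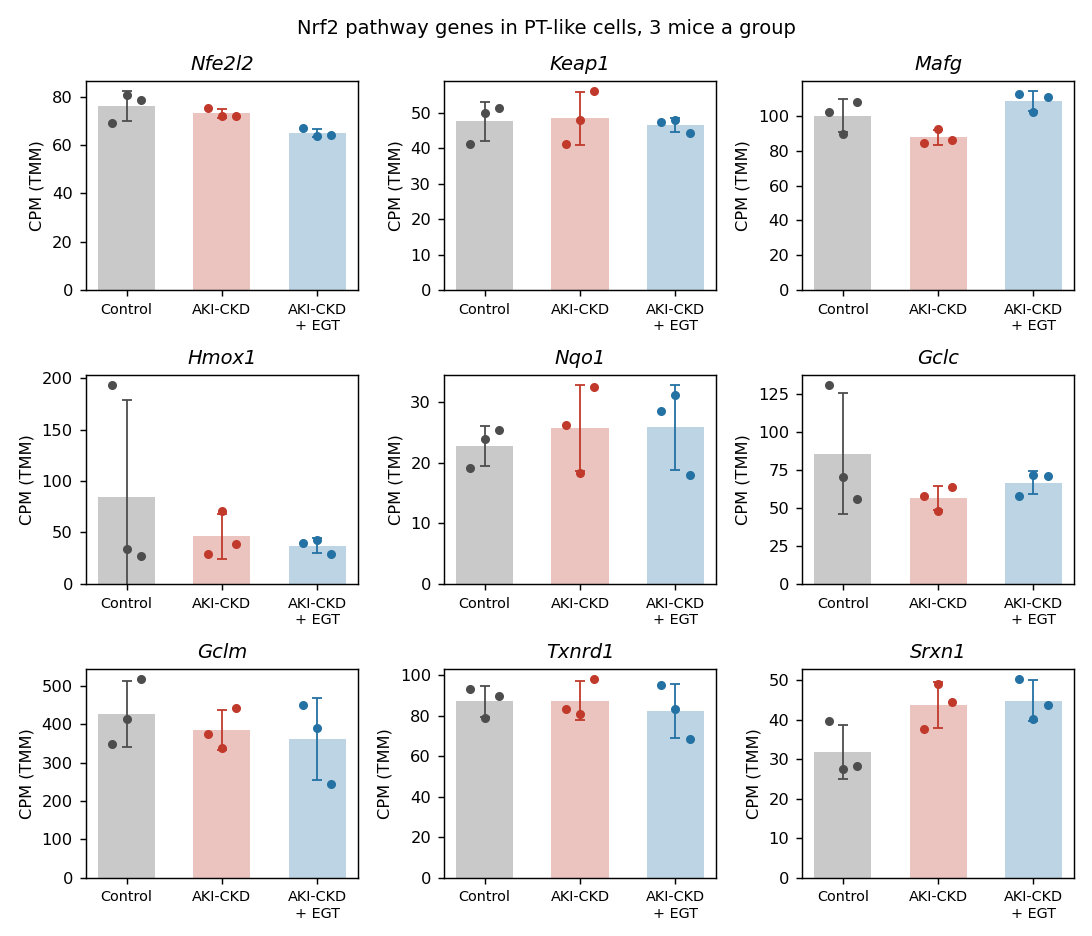
Levels of 9 genes in PT-like cells (CPM, TMM scale) in the 3 groups, with bars for the mean, error bars for the SD and 1 point for each of 3 mice. Control mouse 1 stands alone for Hmox1 at 193 CPM and is highest for Gclc at 131 CPM, and the AKI-CKD + EGT points of Mafg lie above those of AKI-CKD.

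The direction of the Hmox1 difference turned on 1 library, Control mouse 1. In PT-like cells Control mice had 193, 34.2 and 27.5 CPM, AKI-CKD mice 28.9, 70.5 and 39.2 CPM and AKI-CKD + EGT mice 40.1, 42.6 and 29.3 CPM. All groups overlapped, and the fold change of AKI-CKD against Control was -0.88 ± 0.62, turning to 0.58 ± 0.32 without Control mouse 1. It was -0.91 and 0.52 in all kept cells, -1.62 and 0.20 in LOH-like cells, -1.32 and 0.29 in DCT-like cells, -1.15 and 0.15 in endothelial-like cells, and 0.00 and 0.66 in macrophage-like cells. AKI-CKD + EGT against Control turned likewise, from -1.18 to 0.27 in PT-like cells. AKI-CKD + EGT against AKI-CKD, which has no Control mice, gave -0.31 ± 0.62 in PT-like cells. The highest AKI-CKD value, 70.5 CPM, was that of mouse 2.

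Control mouse 1 had the most Hmox1 of the 9 mice in each of the 12 cell types. On plain CPM it had 205 in PT-like cells against 26.7 to 66.4 in the other 8 mice, 5.82 times their median. The ratio was 7.08 in LOH-like cells, 5.75 in DCT-like cells, 2.56 in macrophage-like cells and 9.46 in cycling cells. Since Hmox1 in LOH-like and DCT-like cells was read as PT background above, the values of this library there are not separate from its PT value. Ranked by this ratio among genes of at least 10 CPM, Hmox1 was 3 of 7423 genes in PT-like cells, 1 of 8114 in LOH-like cells, 1 of 8025 in DCT-like cells and 61 of 7909 in macrophage-like cells. Irs2, an insulin receptor substrate, at 7.81 times, and Cish, a cytokine-induced inhibitor of cytokine signalling, at 6.95 times were the only genes above it in PT-like cells, and were named after their values were seen. This mouse also had a median mitochondrial share of 6.86% and few erythroid marker UMIs, and the part of these in its Hmox1 level was not tested.

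**Figure D5:**
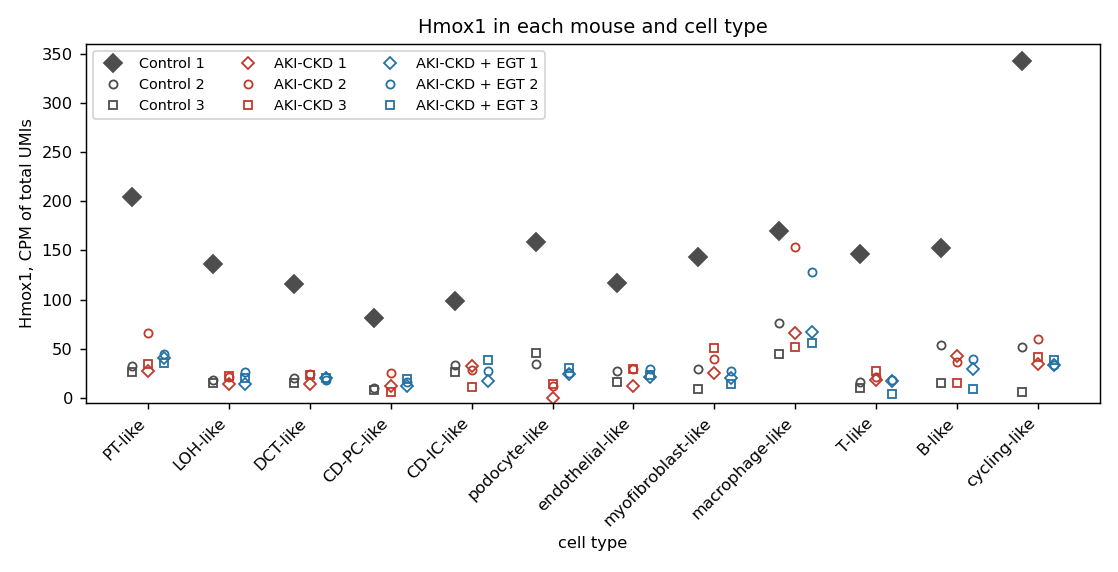
Hmox1 (plain CPM, linear axis) in each of the 9 mice by cell type, with Control mouse 1 as a filled diamond. The diamond is the highest point in every type, at 205 CPM in PT-like cells where the other 8 mice lie between 26.7 and 66.4 CPM.

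Nqo1 overlapped between groups in PT-like cells, at 19.1, 23.8 and 25.3 CPM in Control mice, 26.2, 18.3 and 32.5 CPM in AKI-CKD mice and 28.4, 31.1 and 17.9 CPM in AKI-CKD + EGT mice. In LOH-like cells Control mice had 18.7, 18.2 and 17.6 CPM, AKI-CKD mice 19.1, 19.1 and 26.7 CPM and AKI-CKD + EGT mice 23.8, 26.5 and 19.3 CPM. Both cisplatin groups lay just above Control without overlap, by 0.26 ± 0.23 and 0.32 ± 0.22 (adjusted p = 0.704 and 0.911, edgeR). Without Harmony the first was 0.05 and the second fell just below 0.

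Gclc in PT-like cells was 131, 70.2 and 55.9 CPM in Control mice, 57.7, 48.1 and 63.9 CPM in AKI-CKD mice and 57.7, 71.5 and 71.0 CPM in AKI-CKD + EGT mice. The groups overlapped, and Control mouse 1 stood above all others. With total UMIs the AKI-CKD + EGT mice were above the AKI-CKD mice without overlap, as they were over all kept cells and in macrophage-like cells. AKI-CKD against Control was -0.60 ± 0.27 (adjusted p = 0.445, edgeR), and -0.16 without that mouse. In macrophage-like cells Control mice had 103, 42.6 and 37.0 CPM and AKI-CKD mice 35.7, 27.6 and 36.2 CPM. The groups were apart by less than 1 CPM, at -0.94 ± 0.37, and at -0.30 without Control mouse 1. In these cells Gclc was above all PT markers in 4 of 9 mice. The summed PT markers were 69191 to 92597 CPM in Control and 35415 to 82857 CPM in AKI-CKD mice. As a share of the PT-like level of the same mouse they were 50.7% to 69.6% and 45.9% to 66.8%, which overlapped. In endothelial-like cells Control mice had 84.7, 52.5 and 52.6 CPM, AKI-CKD mice 50.7, 25.2 and 47.8 CPM and AKI-CKD + EGT mice 53.1, 63.6 and 71.2 CPM. AKI-CKD mice lay below both other groups there, by -0.64 ± 0.27 against Control (-0.37 without Control mouse 1), and AKI-CKD + EGT mice were 0.64 ± 0.27 above AKI-CKD mice (adjusted p = 0.459, edgeR). Here it was above all PT markers in 8 of 9 mice. The PT marker share was 57.9%, 31.7% and 50.3% in the AKI-CKD mice, lowest in the mouse with the least Gclc, against 45.4% to 56.3% in Control and 44.8% to 53.9% in AKI-CKD + EGT mice. The part of PT RNA in the macrophage and endothelial differences was not tested. The difference of AKI-CKD + EGT from AKI-CKD mice was above 0 in all 6 populations, which share the same mice.

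Gclm in PT-like cells overlapped between groups, with Control mice at 348, 415 and 520 CPM, AKI-CKD mice at 374, 340 and 443 CPM and AKI-CKD + EGT mice at 450, 391.6 and 244 CPM. In LOH-like cells Control mice had 338, 302 and 317 CPM and AKI-CKD mice 202, 192 and 294 CPM, without overlap, a difference of -0.47 ± 0.17 (adjusted p = 0.307, edgeR). AKI-CKD + EGT mice overlapped both, at 319, 293 and 245 CPM. The summed PT markers in the same LOH-like cells were 79527 to 89526 CPM in Control mice, 32897 to 68555 CPM in AKI-CKD mice and 55743 to 71376 CPM in AKI-CKD + EGT mice. In PT-like cells the sums were 116356 to 143552 CPM in Control mice and 76621 to 118358 CPM in AKI-CKD mice. The PT marker share in LOH-like cells overlapped between these groups, at 52.9% to 66.1% in Control and 41.4% to 56.6% in AKI-CKD mice. The part of PT RNA in the Gclm difference was not tested. DCT-like cells gave -0.44 ± 0.18 with groups that overlapped, and did not with total UMIs. The summed PT markers there were 63051 to 85499 CPM in Control and 25397 to 65242 CPM in AKI-CKD mice. The PT marker share was 43.6% to 65.5% and 33.2% to 51.3% in the same groups. In macrophage-like cells AKI-CKD + EGT mice, at 153 to 221 CPM, lay below Control mice, at 250 to 276 CPM, by -0.45 ± 0.24. The summed PT markers there were likewise apart, at 50547 to 59668 CPM and 69191 to 92597 CPM. The PT marker share was not, at 52.6% to 61.5% and 50.7% to 69.6%. Gclm in these cells stood at 59.3% of PT against a marker share of 57.5%, so this level was read as background.

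Txnrd1 in PT-like cells was 93.3, 78.6 and 89.6 CPM in Control mice, 83.1, 80.8 and 98.3 CPM in AKI-CKD mice and 95.3, 83.2 and 68.6 CPM in AKI-CKD + EGT mice, all overlapping, with 0.00 ± 0.15 for AKI-CKD against Control. In LOH-like cells AKI-CKD mice had 69.0, 88.6 and 87.0 CPM and AKI-CKD + EGT mice 103, 93.2 and 100.5 CPM. They did not overlap, at 0.27 ± 0.17 (adjusted p = 0.480, edgeR), nor did they in DCT-like cells at 0.24 ± 0.16.

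Srxn1 in PT-like cells was 39.8, 27.6 and 28.3 CPM in Control mice, 37.7, 49.1 and 44.6 CPM in AKI-CKD mice and 50.5, 40.2 and 43.9 CPM in AKI-CKD + EGT mice. Control mouse 1 was higher than AKI-CKD mouse 1, so that only the ergothioneine-treated group was apart from Control, and with total UMIs it overlapped Control too. AKI-CKD against Control was 0.46 ± 0.17 (adjusted p = 0.398, edgeR) and AKI-CKD + EGT against Control 0.49 ± 0.17 (adjusted p = 0.560, edgeR). The first difference was above 0 in 10 of 10 PT clusters, from 0.28 to 0.56, with no cluster apart. The clusters are parts of the same mice and no replicates. DCT-like cells gave 0.49 ± 0.20 and LOH-like cells -0.01 ± 0.23. AKI-CKD + EGT and AKI-CKD mice differed by 0.03 ± 0.17 in PT-like cells. Slc7a11 passed edgeR's filter on low counts only over all kept cells, where no mouse was above 0.510 CPM and AKI-CKD against Control gave 0.12 ± 0.89.

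Over the members in PT-like cells, 4 of 9 fold changes were above 0 for AKI-CKD against Control, with a median of -0.06 against -0.02 for all genes, and 4 of 9 for AKI-CKD + EGT against AKI-CKD, with a median of -0.06 against -0.01. Values above and below 0 were thus mixed. With total UMIs the counts were 2 of 9 and 8 of 9, against 35.6% and 78.0% of all genes.

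Other genes of the pathway were taken from lists drawn up by function, with earlier results of these data known. Their counts and calls are therefore descriptions and no independent test. Of 12 further regulators and partners none passed the test in any comparison, and in PT-like cells 2 of 12 were above 0 for AKI-CKD against Control, with a median of -0.19, against 47.8% of all genes and a median of -0.02. For AKI-CKD + EGT against AKI-CKD it was 6 of 12. In the first comparison 2 of 11 were above 0 in LOH-like, 5 of 12 in DCT-like, 5 of 11 in macrophage-like and 3 of 11 in endothelial-like cells. Bach1, a repressor that competes for the same elements, was at -0.33 ± 0.13 (adjusted p = 0.402, edgeR). Of 36 further targets 31 were tested in PT-like cells, and 24 of 31 (77.4%) were above 0 for AKI-CKD against Control, against 47.8% of all genes, and 4 of 31 (12.9%) for AKI-CKD + EGT against AKI-CKD, against 48.8% of all genes. With total UMIs these were 21 of 31 (67.7%) and 13 of 31 (41.9%), against 35.6% and 78.0% of all genes. In other cells the first comparison had 16 of 28 above 0 in LOH-like cells (57.1%, against 49.5% of all genes), 14 of 27 in DCT-like cells (51.9%, against 47.5%), 16 of 27 in macrophage-like cells (59.3%, against 49.2%) and 20 of 28 in endothelial-like cells (71.4%, against 48.6%). The second had 17 of 28 above 0 in LOH-like cells (60.7%, against 52.0% of all genes), 14 of 27 in DCT-like cells (51.9%, against 51.2%), 9 of 27 in macrophage-like cells (33.3%, against 51.2%) and 6 of 28 in endothelial-like cells (21.4%, against 51.8%). A list of 15 dissociation and heat genes had 14 above 0 in endothelial-like cells in the first comparison and 1 in the second, and in PT-like cells 10 and 7. What these genes have to do with the target counts was not tested.

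One of these targets was called in PT-like cells and over all kept cells. Ephx1, the microsomal epoxide hydrolase, was 1.48, 1.18 and 0.967 CPM in PT-like cells of Control mice, 7.02, 11.1 and 14.9 CPM in AKI-CKD mice and 5.03, 3.42 and 3.63 CPM in AKI-CKD + EGT mice. Every mouse of AKI-CKD was above every mouse of both other groups. The rise over Control was 3.18 ± 0.29 (adjusted p = 0.00636, edgeR), and without Control mouse 2 the adjusted p was 0.105. Over all kept cells it rose by 1.75 ± 0.17 (adjusted p = 0.0173, edgeR), and lost the call without Control mouse 2 or 3 or AKI-CKD mouse 2 or 3 (adjusted p = 0.0687 to 0.166) and with the 6 compared mice alone (0.0975). In LOH-like cells it fell by 1.24 from AKI-CKD to AKI-CKD + EGT (adjusted p = 0.0317, edgeR), a call lost without any 1 AKI-CKD mouse, without AKI-CKD + EGT mouse 2 or 3, without Control mouse 2 and without Harmony. Cbr1, a carbonyl reductase, was at 91.4 to 130 CPM in Control mice and 229 to 236 CPM in AKI-CKD mice, 1.06 ± 0.16 (adjusted p = 0.0898, edgeR), which did not pass. Gsta2, a glutathione transferase, was at 0.82 ± 0.25 in PT-like cells (adjusted p = 0.355, edgeR).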

How the data were processed

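Single-cell RNA libraries of 9 mouse kidneys, 3 per group, were analysed from the count matrices. Per the file headers these were made by the authors with PISA (version 1.0) from DNBelab droplet libraries, and the submitters' processing notes name the build GRCm39. The deposited values are whole-number UMI counts per gene and cell, not normalised. Each library is a separate mouse per the labels. The study's methods give more treatment detail than the labels, and doses and times are from them.

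Barcodes with at least 1000 UMIs, 500 genes and at most 15% mitochondrial UMIs were kept, 196925 of 216680, with 64225484 to 97584966 UMIs per mouse. These limits are the study's, which kept fewer cells than they leave here. Names of barcodes recurred between libraries (62337 of 98290), and 0 of these pairs held the same counts. Counts were normalised to each cell's total and log-transformed, and 2000 variable genes, without the members, the other pathway genes and mitochondrial and ribosomal genes, gave 30 principal components, which were aligned by library with a version of Harmony written for this work. Cells were clustered with Leiden (resolution 1.1, 20 neighbours; scanpy 1.11.5, leidenalg 0.10.2, scikit-learn 1.9.0, Python 3.11.15, numpy 2.4.6, scipy 1.17.1) and named from marker lists. The rule for naming clusters was set after the clusters were seen. Scrublet called 5 to 25 doublets per library, too few to have worked, so no cell was removed on that ground, and an alternative left out the 6% highest scores in each library.

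Counts were summed per mouse and tested with edgeR 4.0.16 (limma 3.58.1, R 4.3.3): filterByExpr, TMM, glmQLFit and a 2-sided quasi-likelihood test over all 9 mice, with Benjamini-Hochberg adjustment over all genes of a fit at 0.05. The fit was also tested on simulated counts, with the outcome given below. Alternatives were DESeq2 1.42.0, no filter on low counts, total UMIs in place of TMM (chosen after seeing the data), a replicate block, the compared mice alone, a library size without mitochondrial, ribosomal and Malat1 UMIs, at most 10% mitochondrial UMIs, no Harmony, no high Scrublet scores, and leaving out each mouse.

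The members and lists were chosen with earlier results of these data known. All 10 members were named, with the list genes that were called and the 3 largest fold changes each way of a list at an average of at least 4 log2 CPM. Genes most like a member were the 3 highest Pearson correlations of mean CPM over 12 cell types among genes reaching 5 CPM. Figures were drawn with matplotlib 3.10.9. Promoter windows are RefSeq's (GRCm38.p6), a build other than that of the counts, and were used for sequence only.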

Additional observations from a re-analysis of the deposited data

How the results depend on the processing

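Of the 165 fold changes of members, 73 were larger than their standard error, and these kept their direction and their side of the threshold in 1280 of 1303 alternative fits. Over all 165, 224 of 2940 fits had the other sign, 208 of them where the fold change was within its standard error. Of the 16 that turned among the 73, 10 were of Hmox1 without Control mouse 1. Leaving out single mice, Hmox1 in AKI-CKD mice against Control ran from -1.32 to 0.52 in all kept cells, -1.31 to 0.58 in PT-like, -2.05 to 0.20 in LOH-like, -1.75 to 0.29 in DCT-like and -1.57 to 0.15 in endothelial-like cells. In AKI-CKD + EGT mice against Control it ran from -1.66 to 0.17, -1.604 to 0.27, -1.98 to 0.27, -1.89 to 0.15 and -1.6004 to 0.12 in the same order. Gclc in PT-like cells ran from -0.59 to 0.078 (AKI-CKD + EGT against Control), above 0 without Control mouse 1. Gclm in macrophage-like cells ran from -0.51 to 0.058 (AKI-CKD + EGT against AKI-CKD), above 0 without AKI-CKD mouse 3. Nqo1 in endothelial-like cells ran from -0.027 to 0.58 (AKI-CKD + EGT against Control), below 0 without AKI-CKD + EGT mouse 2. With total UMIs in place of TMM, the difference of Nfe2l2 between the 2 cisplatin groups became 0.049 in all kept cells and 0.057 in PT-like cells, and without Harmony Nqo1 in LOH-like cells became -0.000130 (AKI-CKD + EGT against Control). The other 7 fits that differed were calls without the filter on low counts. That fit called 1 member in each of 7 comparisons, Hmox1 in LOH, DCT and endothelial-like cells in both comparisons with Control and Mafg in DCT-like cells for AKI-CKD + EGT against AKI-CKD, and 0 elsewhere. The share of all genes it called is not set beside these counts, which were not read as results about the members. Leaving out each mouse in turn gave 0 to 0 calls of members in every comparison.

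The number of members with the motif was 5, and 1 with the longer motif. Calls among the other pathway lists, summed over populations, were 2 for AKI-CKD against Control, and 7 with DESeq2, 8 without the filter, 4 with total UMIs and 0 to 4 without single mice. They were 1 for AKI-CKD + EGT against AKI-CKD, and 4 with DESeq2, 7 without the filter, 2 without high Scrublet scores, 0 without Harmony and 0 to 7 without single mice, 7 being without AKI-CKD + EGT mouse 1. They were 0 for AKI-CKD + EGT against Control, and 2 with DESeq2, 4 without the filter and 0 to 1 without single mice, 1 being without AKI-CKD mouse 1. The cause of these changes was not tested. The share of all genes called in each of these fits is not set beside these counts, which were not read as results about the lists. Ephx1 in LOH-like cells, between the cisplatin groups, had an unadjusted p of 8.4e-05 without AKI-CKD + EGT mouse 1 and an adjusted p of 0.0176 (edgeR). In the main fit its unadjusted p was lower, 6.7e-05, and its adjusted p higher, 0.0317 (edgeR). Mice with the same number were not paired by the labels, and their deviations correlated by -0.453 to 0.379. With a replicate block, calls on the other lists were 0 in each comparison, 0 members were called, and Ephx1, Cdkn1a and Hspa1a were not called. All 30 levels followed stayed within their SD, and the highest cell type changed 3 times, each without Harmony, for Mafg (from cycling to podocyte-like), Gclc (from CD-PC-like to CD-IC-like) and Slc7a11 (from macrophage-like to podocyte-like).

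With 3 mice per group the standard errors in PT-like cells ran from 0.11 (Nfe2l2) to 0.63 (Hmox1) on the log2 scale. Differences well above them, such as 0.46 ± 0.17 for Srxn1, were not called. In simulated counts the fit recovered 20 (macrophage-like) to 105 (LOH-like) of 200 genes changed by 1 on the log2 scale, and 94 in PT-like cells. Of 200 changed by 2 it recovered 146 (all kept cells) to 191 (LOH-like and endothelial-like cells). Differences of these sizes could thus go undetected. Slc7a11 was too sparse to pass edgeR's filter on low counts in any cell type.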

Other observations

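Genes with a pattern over the 12 cell types most like that of a member were looked up among 14276 genes. The values are Pearson correlations of mean log2 levels over 12 types that share the same 9 libraries and the same free PT RNA, and are descriptions with no test. For Gclm these were Gstm5, a glutathione transferase (r = 0.989), and Gss, glutathione synthetase, which completes the pathway that Gclm opens (r = 0.963). For Gclc they were Zfp827 (r = 0.964) and Alkbh5, an RNA demethylase (r = 0.964). For Hmox1 they included Slco2b1, an organic anion transporter (r = 0.913), for Nfe2l2 Cln8 (r = 0.921), for Keap1 the small GTPase Rab6a (r = 0.939), for Mafg Glis1 (r = 0.934), for Nqo1 Ptrh2 (r = 0.922), for Txnrd1 Ptcd3 (r = 0.946) and for Srxn1 Cox7a1, a subunit of cytochrome c oxidase (r = 0.941).

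Beyond Nrf2, 2 lists kept for comparison held 1 called gene each in LOH-like or PT-like cells. Cdkn1a, the cell cycle inhibitor p21 on the tubule injury list, was called in PT-like cells at 3.52 for AKI-CKD against Control (adjusted p = 0.0262, edgeR) and in LOH-like cells fell by 1.30 from AKI-CKD to AKI-CKD + EGT (adjusted p = 0.0439, edgeR). Hspa1a, a heat shock protein on the dissociation and heat list, fell by 1.41 in LOH-like cells in the same comparison (adjusted p = 0.0408, edgeR). The Cdkn1a call in PT-like cells was lost with total UMIs (adjusted p = 0.0572, edgeR), without AKI-CKD mouse 2 or 3 and without any 1 Control mouse (adjusted p = 0.0629 to 0.178). The Cdkn1a value in LOH-like cells was -0.86 (adjusted p = 0.264, edgeR) without AKI-CKD mouse 2, and the call was also lost without AKI-CKD mouse 3, AKI-CKD + EGT mouse 2 or 3 or Control mouse 2 (adjusted p = 0.0667 to 0.193), with at most 10% mitochondrial UMIs (0.0531) and without Harmony (0.0522). Hspa1a lost its call without any 1 AKI-CKD mouse or AKI-CKD + EGT mouse 2 or 3 (adjusted p = 0.0815 to 0.166), with at most 10% mitochondrial UMIs (0.0515) and without Harmony (0.0562).

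Sums over these lists are on the TMM scale. The tubule injury list was higher in every AKI-CKD than in every Control mouse in all kept cells (723 to 1076 against 428 to 641 CPM). This was also so in LOH-like cells (1205 to 2114 against 871 to 1142 CPM) and DCT-like cells (2869 to 3898 against 1587 to 2606 CPM). In PT-like cells these groups overlapped (506 CPM in the lowest AKI-CKD and the highest Control mouse). There 4 of the 10 genes of the list were above 0 for AKI-CKD against Control. Their median was -0.017, against -0.015 for all genes. The groups also overlapped in macrophage-like and endothelial-like cells. The dissociation and heat list overlapped between groups in all 6 populations. In LOH, DCT and endothelial-like cells 14 of its 15 genes were below 0 for AKI-CKD + EGT against AKI-CKD. The medians were -0.33, -0.45 and -0.45, against 0.02, 0.01 and 0.02 for all genes. Of these 1 was called, Hspa1a in LOH-like cells.

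In promoter windows, TGACNNNGC was found for 2 of 10 further regulators and 10 of 29 further targets with a window.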
